A study of Mus musculus with 2 samples.

Results

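The genes of lipid droplet coating, triglyceride breakdown and triglyceride synthesis were followed in leukocytes of mouse brown adipose tissue (BAT), a fat depot that burns stored lipid to make heat. The 10 genes were Plin2, Plin3, Pnpla2, Abhd5, G0s2, Hilpda, Dgat1, Dgat2, Lipe and Mgll, a fixed list out of 32285 genes in the count matrices. All 10 were found in the matrices and each had at least 20 UMIs (unique molecular identifiers, 1 per captured transcript) in both libraries. Cells were sorted as CD45+ Dapi-, that is living leukocytes, from collagenase-digested BAT, and their 3′ transcript ends were counted by droplet single-cell RNA-seq. Both libraries came from male C57Bl/6 mice with the AdipoQ-CreERT2 transgene and floxed ATGL alleles (ATGLfl/fl), labelled as 16 weeks old. The control mice received vehicle (10% ethanol in sunflower oil) and the AdipoΔ/Δ mice received tamoxifen at 10 mg/ml, 200 uL by intraperitoneal injection, every 2 days for 1 week, followed by 2 weeks of rest. Tamoxifen thus separated the libraries together with the deletion, and their effects cannot be told apart. The adiponectin promoter drives the Cre recombinase in adipocytes, so Pnpla2, which encodes ATGL, was left intact in leukocytes, and the comparison asks how these cells carry the pathway themselves. There was 1 library per condition and the number of mice in each was not given, so no test between conditions was possible and all values are descriptions of these libraries.

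Fat is stored as triglyceride inside lipid droplets, whose surface is covered by perilipins. ATGL removes the first fatty acid from a triglyceride, hormone-sensitive lipase the next and monoglyceride lipase the last, while diacylglycerol acyltransferases run the final step of synthesis in the other direction. Macrophages of fat tissue take up lipid and store it in droplets, and leukocytes can draw on such stores for fatty acids.

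The control library held 2597 barcodes and 11327187 UMIs, and the AdipoΔ/Δ library 2381 barcodes and 12028844 UMIs, of which 2279 and 2016 cells were kept, with median UMIs per cell of 3678 and 3942. Clustering without the 10 genes and the rest of the pathway gave 18 clusters, named from marker lists as 8 classes used here (macrophage-like, Ly6C high and Ly6C low monocyte-like, neutrophil-like, dendritic cell-like, NK cell-like, T cell-like and B cell-like), 3 small groups and 2 unnamed clusters. The libraries differed most in macrophage-like cells, at 126 (5.53% of cells) in control and 404 (20.0%) in AdipoΔ/Δ, with a median depth of 3314.5 and 6343 UMIs. Of the barcodes, 4 were shared by the libraries. A list of 11 adipocyte markers summed to 14.7 and 11.4 CPM over all kept cells, with 7 and 9 of its genes detected and Ucp1, the marker of brown adipocytes, at 0 in control. Neutrophil-like cells held 94 of the 158 UMIs of this list in control, from Retn and Thrsp only. In AdipoΔ/Δ they held 31 of 129. Levels are counts per 1000000 UMIs (CPM), from the UMIs summed over a class, with exact 95% Poisson intervals, and a ratio is AdipoΔ/Δ over control with an exact binomial interval, given where both libraries together held at least 20 UMIs. These intervals cover counting error only, not the spread between mice. A ratio of at least 1.5 in either direction is called higher or lower as a rule of size, not as a test.

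The promoters of the 3 genes on which the results turn most are shown, since their transcripts were distributed differently: Plin2 was highest in macrophage-like cells, G0s2 was found mainly in neutrophil-like cells and Pnpla2 in all 8 classes. Each sequence is the 250 bases before the RefSeq transcript start on the gene's own strand, build GRCm38.p6, and capitals mark a motif match.
Plin2, chr4:86670060-86670309, minus strand: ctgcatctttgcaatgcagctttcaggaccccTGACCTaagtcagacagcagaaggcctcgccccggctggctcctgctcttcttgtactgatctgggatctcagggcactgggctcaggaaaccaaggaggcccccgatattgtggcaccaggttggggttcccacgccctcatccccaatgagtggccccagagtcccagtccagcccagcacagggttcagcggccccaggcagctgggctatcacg
Pnpla2, chr7:141454938-141455187, plus strand: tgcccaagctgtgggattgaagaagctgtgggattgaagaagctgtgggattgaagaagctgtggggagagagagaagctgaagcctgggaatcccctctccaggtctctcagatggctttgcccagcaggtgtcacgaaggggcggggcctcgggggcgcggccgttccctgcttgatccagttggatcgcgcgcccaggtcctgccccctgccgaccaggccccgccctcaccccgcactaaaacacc
G0s2, chr1:193273189-193273438, minus strand: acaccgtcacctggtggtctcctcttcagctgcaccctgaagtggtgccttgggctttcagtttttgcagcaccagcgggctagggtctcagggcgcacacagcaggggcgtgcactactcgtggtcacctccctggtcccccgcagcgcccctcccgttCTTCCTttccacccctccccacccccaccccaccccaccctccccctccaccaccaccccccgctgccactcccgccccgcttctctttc
The motifs searched on both strands were the nuclear receptor core AGGTCA, the ETS core of PU.1 type AGGAAG, the C/EBP site TTNNGCAA and the HIF core ACGTG. Plin2 held 1 nuclear receptor core, read on the opposite strand 218 bases before the start, a match that 14.0% of 32851 promoters of this length also held. G0s2 held 1 ETS core 90 bases before the start, as did 29.5% of promoters, and Pnpla2 held none of the 4 motifs. Hilpda held the HIF core 43 bases before its second annotated start, and Lipe and Mgll held it as well, against 16.6% of all promoters, whereas the C/EBP site, present in 9.56% of promoters, was in none of the promoters read. The genes lie on separate stretches of the genome (GRCm38, GENCODE M21): Plin2 at chr4:86648386-86670060, Pnpla2 at chr7:141455198-141460743 and G0s2 at chr1:193272161-193273217. G0s2 overlaps Lamb3, Abhd5 overlaps A730085K08Rik, Lipe overlaps 4732471J01Rik and Mgll overlaps 5 predicted genes. The strands of these partners were not compared, and whether their reads entered the counts of these members was not tested.

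Most of the 10 genes had their highest level in macrophage-like or neutrophil-like cells, 8 of them in control and 10 in AdipoΔ/Δ. In control, 6 of 10 were highest in neutrophil-like cells (Pnpla2, G0s2, Dgat1, Dgat2, Lipe and Mgll), where 13.2% of all genes with at least 20 UMIs had their highest level. The same 6 were highest there in AdipoΔ/Δ, against 14.5% of all genes. The coat genes Plin2 and Plin3 were highest in macrophage-like cells of control, against 14.8% of all genes. Abhd5 was highest in Ly6C high monocyte-like cells of control and Hilpda in T cell-like cells. In AdipoΔ/Δ, Abhd5 and Hilpda joined the coat genes, making 4 of 10 against 14.1% of all genes. UMI counts of the 3′ end are not scaled for how well each transcript is captured, so levels are compared between classes and libraries for 1 gene and not between genes.

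**Figure D1:**
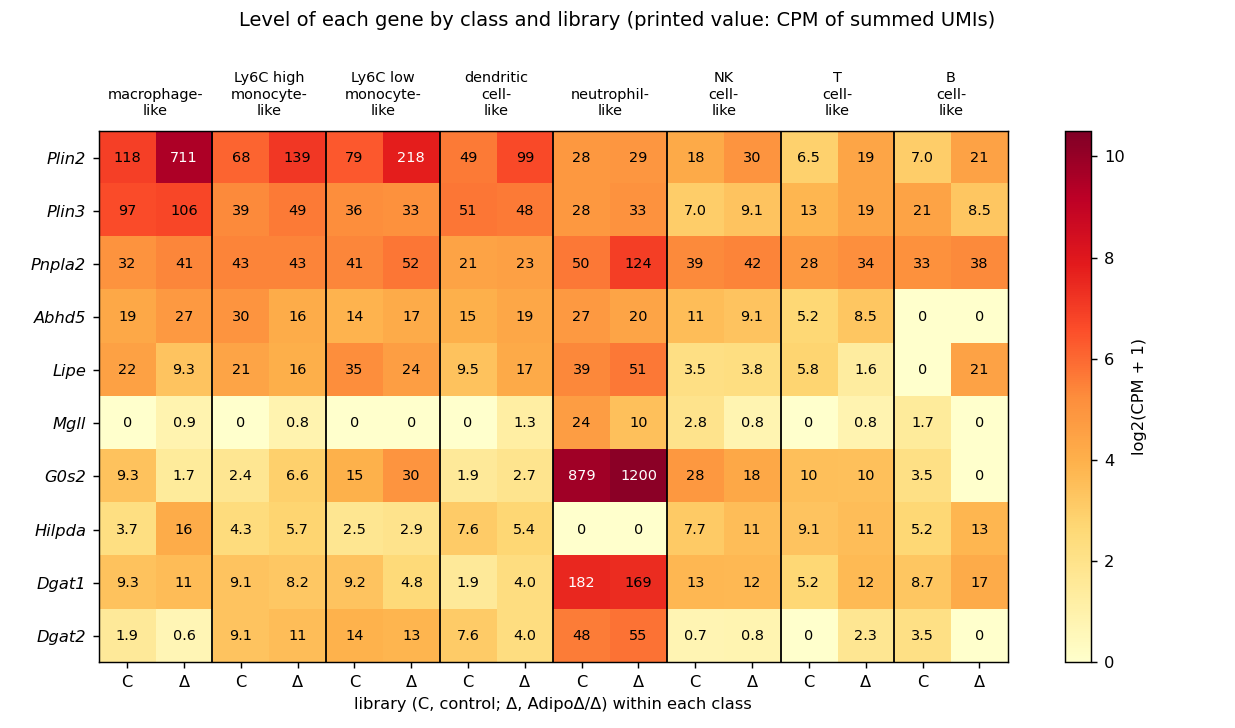
Level of each of the 10 genes (rows) in 8 leukocyte classes (column pairs; C, control; Δ, AdipoΔ/Δ), coloured by log2(CPM + 1) with the CPM printed in each cell. G0s2 and Dgat1 stand out in the neutrophil-like columns of both libraries, at 879 and 1199.6 CPM and at 182 and 169 CPM, and Plin2 in the AdipoΔ/Δ macrophage-like column at 711 CPM.

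Plin2 encodes perilipin 2, the droplet coat protein found in nearly all cells that store lipid. It was the member with the largest difference between libraries. Over all cells it gave 488 UMIs in control and 3284 in AdipoΔ/Δ, or 45.4 and 290.2 CPM (ratio 6.39, 95% interval 5.81 to 7.05). Macrophage-like cells held 12.9% of these UMIs in control and 74.7% in AdipoΔ/Δ, while their share of all UMIs was 4.98% and 30.5%. The difference over all cells thus held both a larger share of macrophage-like cells and a higher level inside the class.

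Within macrophage-like cells, the Plin2 level was 118 CPM (90.5 to 151) in control and 711 CPM (683 to 739) in AdipoΔ/Δ, and the intervals did not overlap (ratio 6.04, 4.70 to 7.88). The share of these cells with a Plin2 UMI was 25.4% and 63.9%, against 1.14% and 4.21% of B cell-like cells, which had median depths of 1803 and 1975 UMIs. With every cell thinned to 1000 UMIs the macrophage-like shares were 9.02% and 30.0%, and those of B cell-like cells 0.474% and 0. The difference was thus present at equal depth.

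3 macrophage subsets contributed unequally. M2-like macrophages, marked by Lyve1 and Folr2, had 26.0 CPM of Plin2 in control (6 UMIs in 65 cells) and 218 CPM in AdipoΔ/Δ (210 UMIs in 142 cells), a ratio of 8.39 (3.79 to 23.1). Matrix macrophages, marked by Ecm1 and Fn1, had 90.5 CPM and 218 CPM (ratio 2.41, 1.60 to 3.79). Both subsets thus reached the same Plin2 level in AdipoΔ/Δ from different levels in control.

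Lipid-associated macrophages, marked by Gpnmb, Trem2 and Cd63, had the highest Plin2 level of all groups in both libraries. Their level was 1131 CPM (773 to 1596) in the 12 cells of control and 1704 CPM (1629 to 1781) in the 88 cells of AdipoΔ/Δ, with a ratio of 1.51 (1.06 to 2.21). In control, 1 cell gave 17 of the 32 Plin2 UMIs (53.1%), and the median depth there was 1321 UMIs against 11923.5 in AdipoΔ/Δ. Among cells with at least 1000 UMIs, the median was 6.45 Plin2 UMIs per 10000 in control and 14.6 in AdipoΔ/Δ. The thinned share of cells with a UMI was 81.8% and 78.2%, over 11 and 87 cells. Plin2 was itself among the 10 leading genes of this cluster, although it was kept out of the clustering, so its high level there is a description of the cluster.

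The makeup of the macrophage-like class therefore moved with the class ratio. The lipid-associated subset held 5.29% of the UMIs of the class in control and 33.1% in AdipoΔ/Δ. Without that subset, a comparison added after the data were seen, the Plin2 level was 61.2 and 218 CPM and the ratio 3.57. The 3 subsets were also given the same weights in both libraries, namely their shares of the class UMIs of both libraries together. The levels were then 377 and 655 CPM and the ratio was 1.74. With every cell given equal weight, as the mean of CPM per cell, it was 3.26.

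**Figure D2:**
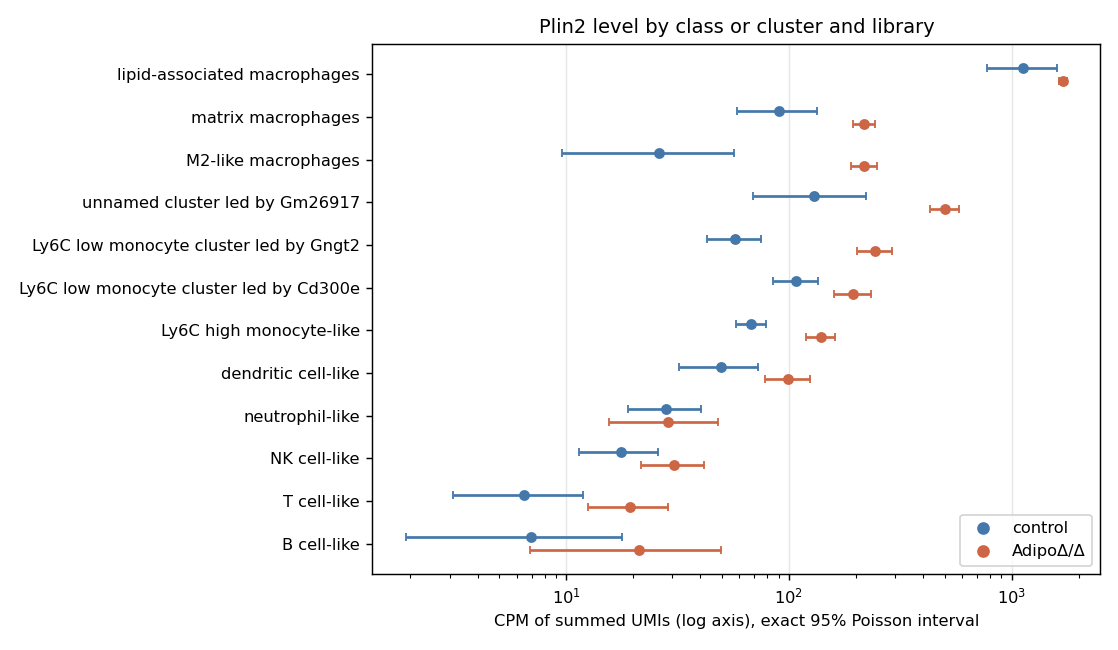
Plin2 level (CPM of summed UMIs, log axis) by class or cluster in control and AdipoΔ/Δ, with exact 95% Poisson intervals as bars. The lipid-associated macrophages lie highest in both libraries, at 1131 and 1704 CPM, and most monocyte, macrophage and dendritic cell-like groups lie higher in AdipoΔ/Δ, whereas the neutrophil-like points, at 28.1 and 28.6 CPM, coincide.

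Plin2 was also higher outside macrophages. Ly6C high monocyte-like cells, the classical monocytes, had 67.8 CPM (58.1 to 78.8) in control and 139 CPM (119 to 162) in AdipoΔ/Δ, a ratio of 2.05 (1.65 to 2.55). In Ly6C low monocyte-like cells the levels were 79.3 CPM (66.2 to 94.2) and 218 CPM (191 to 248), a ratio of 2.75 (2.21 to 3.44). Dendritic cell-like cells had 49.4 CPM and 99.5 CPM (ratio 2.01, 1.27 to 3.28). In these 3 classes the intervals of the libraries did not overlap. The ratio was 1.46 in Ly6C high monocyte-like cells without integration of the libraries and 1.24 in dendritic cell-like cells after thinning, both below 1.5.

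The Ly6C low monocyte-like class was made of 2 clusters, which differed in the monocyte gene Ly6c2. In control and AdipoΔ/Δ, Ly6c2 was at 8.53 and 30.6 CPM in the cluster led by Cd300e. It was at 507 and 420 CPM in the cluster led by Gngt2. Ly6C high monocyte-like cells had 1200 and 1710 CPM, so the Gngt2 cluster lay in between. The cluster led by Cd300e had 108 CPM of Plin2 in control and 194 CPM in AdipoΔ/Δ (ratio 1.80), and the cluster led by Gngt2 had 57.3 and 244 CPM (ratio 4.26). In the Gngt2 cluster the summed level of the macrophage genes C1qa, C1qb and C1qc was 27.0 CPM in control and 1219.8 CPM in AdipoΔ/Δ. At the Plin2 to C1q ratio of macrophage-like cells, that C1q level would come with 93.2 of the 121 Plin2 UMIs of this cluster in AdipoΔ/Δ, against 8.80 of 108 in the Cd300e cluster.

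Lymphoid cells had low Plin2 levels. NK cell-like cells had 17.6 CPM (25 UMIs) and 30.4 CPM (40 UMIs), a ratio of 1.73 (1.03 to 2.98), and T cell-like cells 6.47 CPM (10 UMIs) and 19.4 CPM (25 UMIs), a ratio of 2.998 (1.39 to 6.996). The T cell-like class was made of 3 clusters whose cell numbers differed between libraries. The cluster led by Cd8a, with 92 and 107 cells, held 4 and 17 of these Plin2 UMIs (ratio 2.94, 0.958 to 12.0). The cluster led by Dapl1, with 197 and 84 cells, held 6 and 4, and that led by Lef1 held 0 and 4. In B cell-like cells 4 and 5 UMIs were too few for a ratio.

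Some macrophage transcripts also differed in these classes. Lpl, the lipoprotein lipase gene and abundant in macrophages, was at 1.41 CPM (2 UMIs) in control and 70.0 CPM (92 UMIs) in AdipoΔ/Δ in NK cell-like cells and at 5.17 and 34.1 CPM in T cell-like cells. If Plin2 in AdipoΔ/Δ had come with Lpl at the ratio of macrophage-like cells, it would have given 20.6 of the 40 Plin2 UMIs of NK cell-like cells, 9.86 of 25 in T cell-like, 18.2 of 74 in dendritic cell-like, 69.7 of 229 in Ly6C low and 149 of 170 in Ly6C high monocyte-like cells. With C1q in place of Lpl the numbers were 8.64, 8.03, 7.25, 102 and 33.8 UMIs. Ly6C high monocyte-like cells had 76.9 CPM of Lpl in control already, and Gpnmb, the leading gene of lipid-associated macrophages, had 26 UMIs there in AdipoΔ/Δ, 3 in T cell-like cells and 0 in NK cell-like and dendritic cell-like cells. Trem2, another marker of that subset, was at 87.9 and 80.3 CPM in Ly6C high and at 42.4 and 41.9 CPM in Ly6C low monocyte-like cells. Beyond these values, the part of free macrophage RNA in the Plin2 ratios was not tested.

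Neutrophil-like cells were the exception among classes with enough Plin2 counts. Their level was 28.1 CPM (19.0 to 40.2) in control and 28.6 CPM (15.6 to 47.9) in AdipoΔ/Δ, with a ratio of 1.02. The interval of 0.497 to 1.97 leaves room for differences of nearly 2-fold in either direction. In all, Plin2 was at least 1.5-fold higher in 6 of the 7 classes with a ratio. The background of genes at least 1.5-fold higher was 21.2% in macrophage-like cells, 12.6% in Ly6C high and 13.2% in Ly6C low monocyte-like cells, 19.6% in dendritic cell-like, 10.3% in NK cell-like, 20.8% in T cell-like and 22.7% in neutrophil-like cells.

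Plin3, the other coat gene, encodes a perilipin that moves between the cytosol and nascent droplets. Its level in macrophage-like cells was 97.2 CPM (72.6 to 127) in control and 106 CPM (95.1 to 117) in AdipoΔ/Δ, a ratio of 1.09 (0.812 to 1.48). Matrix macrophages had the most in each library, at 123 and 156 CPM. Outside macrophages the levels ran from 7.03 CPM in NK cell-like cells to 51.3 CPM in dendritic cell-like cells of control, and no class passed the 1.5-fold rule. The 2 coat genes thus shared their class of highest level but not the difference between libraries. Over all cells Plin3 was higher in AdipoΔ/Δ (30.1 and 53.9 CPM, ratio 1.79), and 16.0% of its UMIs in control and 59.8% in AdipoΔ/Δ were in macrophage-like cells.

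Pnpla2, the gene deleted in adipocytes, was detected in all 8 leukocyte classes of both libraries. Over all cells it gave 399 UMIs (37.1 CPM, 33.6 to 40.9) in control and 477 UMIs (42.2 CPM, 38.5 to 46.1) in AdipoΔ/Δ, with a ratio of 1.14 (0.992 to 1.30). In control its levels ran from 20.9 CPM in dendritic cell-like cells to 49.7 CPM in neutrophil-like cells. The order in between was T cell-like (27.8 CPM), macrophage-like (31.8), B cell-like (33.1), NK cell-like (38.6), Ly6C low (40.5) and Ly6C high monocyte-like cells (42.6). Neighbours in this order had overlapping intervals.

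Macrophage-like cells had 31.8 CPM of Pnpla2 (18.5 to 50.9) in control and 40.5 CPM (34.1 to 47.8) in AdipoΔ/Δ, a ratio of 1.28 (0.769 to 2.25). Ly6C high monocyte-like cells had 42.6 CPM in both libraries (95% interval of the ratio 0.704 to 1.405). In 7 of 8 classes the ratio stayed within 1.5-fold. The deposited counts at the 3′ end do not show whether the floxed part of the transcript was present.

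The class outside that range was the neutrophil-like one, at 49.7 CPM (37.2 to 65.0; 53 UMIs in 314 cells) in control and 124 CPM (95.2 to 160; 61 UMIs in 171 cells) in AdipoΔ/Δ. The intervals did not overlap and the ratio was 2.50 (1.70 to 3.69). The share of these cells with a Pnpla2 UMI was 15.6% and 24.0%, or 5.12% and 8.39% after thinning, with median depths of 2968.5 and 2695 UMIs. In B cell-like cells it was 6.46% and 5.26%, or 0.948% and 3.90% after thinning. Pnpla2 was the only member at least 1.5-fold higher in neutrophil-like cells, 1 of 9 with a ratio, against 22.7% of all genes.

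Neutrophil-like cells of the libraries also differed in other respects. 1 of their 2 subclusters held the granule genes Ngp and Camp at 7077 and 7299 CPM in control and at 0 in AdipoΔ/Δ, and the median mitochondrial share of UMIs was 1.72% and 0.383% in the class. In that subcluster Pnpla2 was 53.5 and 114 CPM (ratio 2.14, 1.05 to 4.19), and in the other 46.5 and 128 CPM (ratio 2.75, 1.68 to 4.61). Among the 270 and 158 cells without a UMI of Ngp, Camp or Ltf, a selection added after the data were seen, the levels were 57.4 and 124 CPM and the ratio was 2.17 (1.43 to 3.29). The ratio was thus above 2 in each of these parts. A list of 8 dissociation-response genes also moved in the class, from 7354 to 9672 CPM, and its part in the result was not tested.

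**Figure D3:**
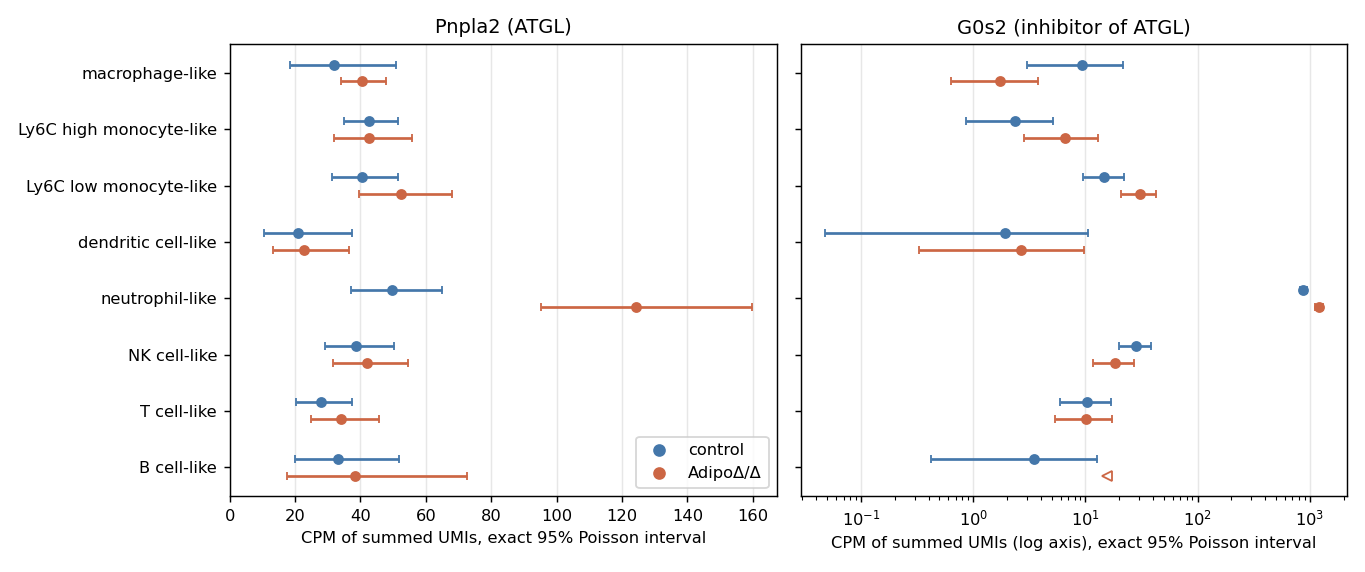
Levels of Pnpla2 (left, linear axis) and G0s2 (right, log axis) as CPM of summed UMIs in 8 classes of control and AdipoΔ/Δ, with exact 95% Poisson intervals as bars. Pnpla2 lies between 20.9 and 52.3 CPM except in neutrophil-like cells of AdipoΔ/Δ (124 CPM), and G0s2 lies at 879 and 1199.6 CPM in neutrophil-like cells and at most at 30.4 CPM elsewhere.

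G0s2 encodes a small protein that binds ATGL and blocks its activity. Its transcripts were largely confined to neutrophil-like cells, which held 937 of 1035 UMIs (90.5%) in control and 588 of 679 (86.6%) in AdipoΔ/Δ while making up 13.8% and 8.48% of cells. The level there was 879 CPM (823 to 937) in control and 1199.6 CPM (1105 to 1301) in AdipoΔ/Δ, a ratio of 1.36 (1.23 to 1.51) and within 1.5-fold. The median gene of these cells also had a ratio above 1, by 0.26 on the log2 scale. With counts scaled by the median of ratios over genes, the G0s2 ratio was 1.11 and that of Pnpla2 was 2.03. The share of neutrophil-like cells with a G0s2 UMI was 59.2% and 58.5%, or 42.7% and 43.2% after thinning, against 0.760% and 0 of B cell-like cells, and 186 of 314 and 100 of 171 cells held a UMI.

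Outside neutrophils, G0s2 was low but not uniformly so. NK cell-like cells had 28.1 CPM (40 UMIs) and 18.3 CPM (24 UMIs), a ratio of 0.650 (0.375 to 1.10), which made G0s2 the only member, 1 of 7, at least 1.5-fold lower there, against 4.61% of all genes. Ly6C low monocyte-like cells had 14.7 CPM (24 UMIs) and 30.4 CPM (32 UMIs), a ratio of 2.06 (1.18 to 3.66). The Cd300e cluster held 22 and 31 of those UMIs, or 31.3 and 55.8 CPM. At the ratio of G0s2 to S100a8 and S100a9 in neutrophil-like cells, free neutrophil RNA would have given 0.961 and 0.593 G0s2 UMIs in the Cd300e cluster, and 1.24 and 0.462 in NK cell-like cells. Macrophage-like cells had 5 and 6 UMIs, or 9.34 CPM (3.03 to 21.8) and 1.74 CPM (0.638 to 3.78), and the 88 lipid-associated macrophages of AdipoΔ/Δ had 0 UMIs, which allows up to 2.62 CPM.

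The number of G0s2 UMIs for each Pnpla2 UMI was taken from UMIs summed over a class, so it does not show pairing within cells. It also depends on how well each transcript is captured, and is compared only between classes and libraries. It was 17.7 (13.4 to 23.8) in neutrophil-like cells of control and 9.64 (7.40 to 12.8) in those of AdipoΔ/Δ. In macrophage-like cells it was 0.294 (0.0848 to 0.831) and 0.0429 (0.0155 to 0.0957). In neutrophil-like cells the lower value of AdipoΔ/Δ held a higher Pnpla2 level beside a G0s2 level within 1.5-fold. In macrophage-like cells it rested on 5 and 6 G0s2 UMIs. The neutrophil genes S100a8 and S100a9 moved the same way there, from 1375 to 74.1 CPM, and at the ratio of neutrophil-like cells would come with 2.73 and 1.76 G0s2 UMIs. The part of free neutrophil RNA in these values was not tested.

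Hilpda encodes a second small inhibitor of ATGL, known to be induced by hypoxia and by fatty acids. Neutrophil-like cells had 0 UMIs in both libraries, which allows up to 2.81 CPM in control and 6.12 CPM in AdipoΔ/Δ. In control, 14 of the 55 Hilpda UMIs were in T cell-like cells, 11 each in NK cell-like and Ly6C high monocyte-like cells and 2 in macrophage-like cells, whereas in AdipoΔ/Δ macrophage-like cells held 56 of 117 (47.9%). Macrophage-like cells had 3.74 CPM (0.453 to 13.5; 2 UMIs) in control and 16.2 CPM (12.2 to 21.1; 56 UMIs) in AdipoΔ/Δ, a ratio of 4.34 with a wide interval of 1.15 to 36.7. Of the 56 UMIs, 46 were in lipid-associated macrophages, at 40.2 CPM (29.4 to 53.6), in 22 of 88 cells. In that subset of control no Hilpda UMI was seen, but its 28300 UMIs allow up to 106 CPM. Without the lipid-associated subset the class ratio was 1.10, and with cells thinned to 1000 UMIs, which leaves few Hilpda counts, it was 0.946. In AdipoΔ/Δ the inhibitor transcripts were thus split, with G0s2 and no Hilpda UMI in neutrophil-like cells, and Hilpda and no G0s2 UMI in lipid-associated macrophages, where there were 0.767 (0.511 to 1.14) Hilpda UMIs for each Pnpla2 UMI. T cell-like cells had 9.05 and 10.9 CPM of Hilpda and NK cell-like cells 7.73 and 10.7 CPM, both within 1.5-fold.

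Abhd5 encodes CGI-58, the coactivator that ATGL needs for full activity. It was highest in Ly6C high monocyte-like cells of control, at 30.4 CPM (24.0 to 38.0), where the AdipoΔ/Δ library had 16.4 CPM (10.0 to 25.3). The ratio of 0.540 (0.312 to 0.892) made it the only member, 1 of 7, at least 1.5-fold lower in these cells, against 5.74% of all genes. In macrophage-like cells it was 18.7 CPM (10 UMIs) and 26.9 CPM (93 UMIs), a ratio of 1.44 (0.750 to 3.10). Lipid-associated macrophages of AdipoΔ/Δ had 41.9 CPM (30.9 to 55.6), the highest level of any group of that library. In neutrophil-like cells there were 0.547 Abhd5 UMIs for each Pnpla2 UMI in control and 0.164 in AdipoΔ/Δ, and B cell-like cells had none in either library.

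Lipe encodes hormone-sensitive lipase, which acts on the diacylglycerol that ATGL leaves. It was highest in neutrophil-like cells, at 39.4 CPM (28.4 to 53.2) and 51.0 CPM (33.0 to 75.3), a ratio of 1.29 (0.756 to 2.17). Ly6C low monocyte-like cells followed with 35.0 and 23.8 CPM (ratio 0.679). Macrophage-like cells had 22.4 CPM (12 UMIs) in control and 9.27 CPM (32 UMIs) in AdipoΔ/Δ, a ratio of 0.413 (0.207 to 0.881). Lipe was the only member, 1 of 7, at least 1.5-fold lower in macrophage-like cells, against 12.3% of all genes. Adipocyte markers moved the same way in this class, a list of 11 genes falling from 46.7 to 20.0 CPM with 5 and 8 genes detected and Ucp1 at 0 in control. All 25 UMIs of this list in control were in M2-like macrophages, which had 7 Lipe UMIs in control and 8 in AdipoΔ/Δ. Matrix macrophages of control had 0 UMIs of the list. They had 5 Lipe UMIs among 276224 UMIs in control and 14 among 1346669 in AdipoΔ/Δ. Lipe is abundant in adipocytes, and the part of adipocyte RNA in the difference was not tested.

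Among the 8 classes, Mgll, the monoglyceride lipase gene, was close to the detection limit except in neutrophil-like cells. Of its 39 UMIs in the whole control library and 20 in AdipoΔ/Δ, cells outside these classes held 8 in each. Neutrophil-like cells held 26 and 5, or 24.4 CPM (15.9 to 35.7) and 10.2 CPM (3.31 to 23.8). The ratio of 0.418 (0.125 to 1.11) made it the only member, 1 of 9, at least 1.5-fold lower in neutrophil-like cells, against 6.39% of all genes, and its interval included 1. Macrophage-like cells had 0 and 3 Mgll UMIs.

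Dgat1 and Dgat2 encode the acyltransferases that make triglyceride, and both were highest in neutrophil-like cells. Dgat1 was at 182 CPM (157 to 209) in control and 169 CPM (135 to 210) in AdipoΔ/Δ, a ratio of 0.931 (0.711 to 1.21), and was found in 35.0% and 34.5% of these cells, or 12.3% and 13.5% after thinning. In B cell-like cells the share was 1.90% and 4.21%. Other classes lay between 1.90 and 17.0 CPM. Dgat2 was at 47.8 CPM (35.6 to 62.9) and 55.1 CPM (36.3 to 80.1) in neutrophil-like cells, a ratio of 1.15 (0.694 to 1.87), and macrophage-like cells had only 1 and 2 UMIs. The synthesis genes of neutrophil-like cells thus differed by less than counting error between libraries.

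2 ratios of Dgat1 passed the rule of size with intervals that included 1. T cell-like cells had 5.17 and 11.6 CPM (8 and 15 UMIs; ratio 2.25, 0.895 to 6.12), and Ly6C low monocyte-like cells 9.22 and 4.76 CPM (15 and 5 UMIs; ratio 0.516, 0.147 to 1.49). In the latter class Dgat1 was 1 of 8 members and the only one at least 1.5-fold lower, against 6.19% of all genes.

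**Figure D4:**
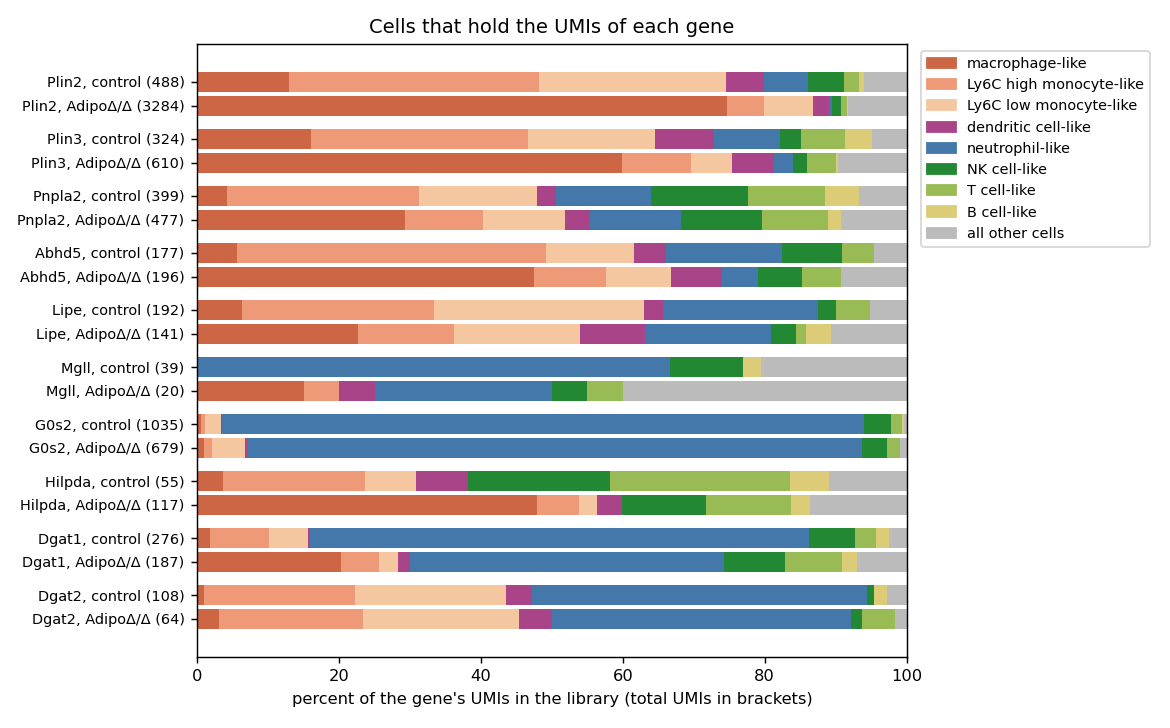
Share of each gene's UMIs (percent of its UMIs in the library, total UMIs in brackets) held by each class, stacked to 100, for control and AdipoΔ/Δ. Macrophage-like cells hold 12.9% of Plin2 UMIs in control and 74.7% in AdipoΔ/Δ, and neutrophil-like cells hold 90.5% and 86.6% of G0s2 UMIs.

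Over the 8 classes, 49 ratios of a member in a class could be formed, of which 10 were at least 1.5-fold higher in AdipoΔ/Δ, 5 were lower and 34 lay between. Plin2 made up 6 of the 10 higher ones. In macrophage-like cells 2 of 7 members were higher (Plin2 and Hilpda) and 1 was lower, and the median log2 ratio of the members was 0.35 against 0.11 over all genes. In neutrophil-like cells the median was 0.20 against 0.26. Over all genes this median ran from 0.08 in NK cell-like to 0.26 in neutrophil-like cells, and with counts scaled by the median of ratios Plin2 was still at least 1.5-fold higher in the same 6 classes (1.60 to 6.01). In Ly6C low monocyte-like cells 2 of 8 members were higher (Plin2 and G0s2) and in T cell-like cells 2 of 6 (Plin2 and Dgat1), and in the Ly6C high, dendritic cell-like and NK cell-like classes Plin2 alone. Apart from Plin2, the counts of higher members were small and are not read as a property of the list.

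**Figure D5:**
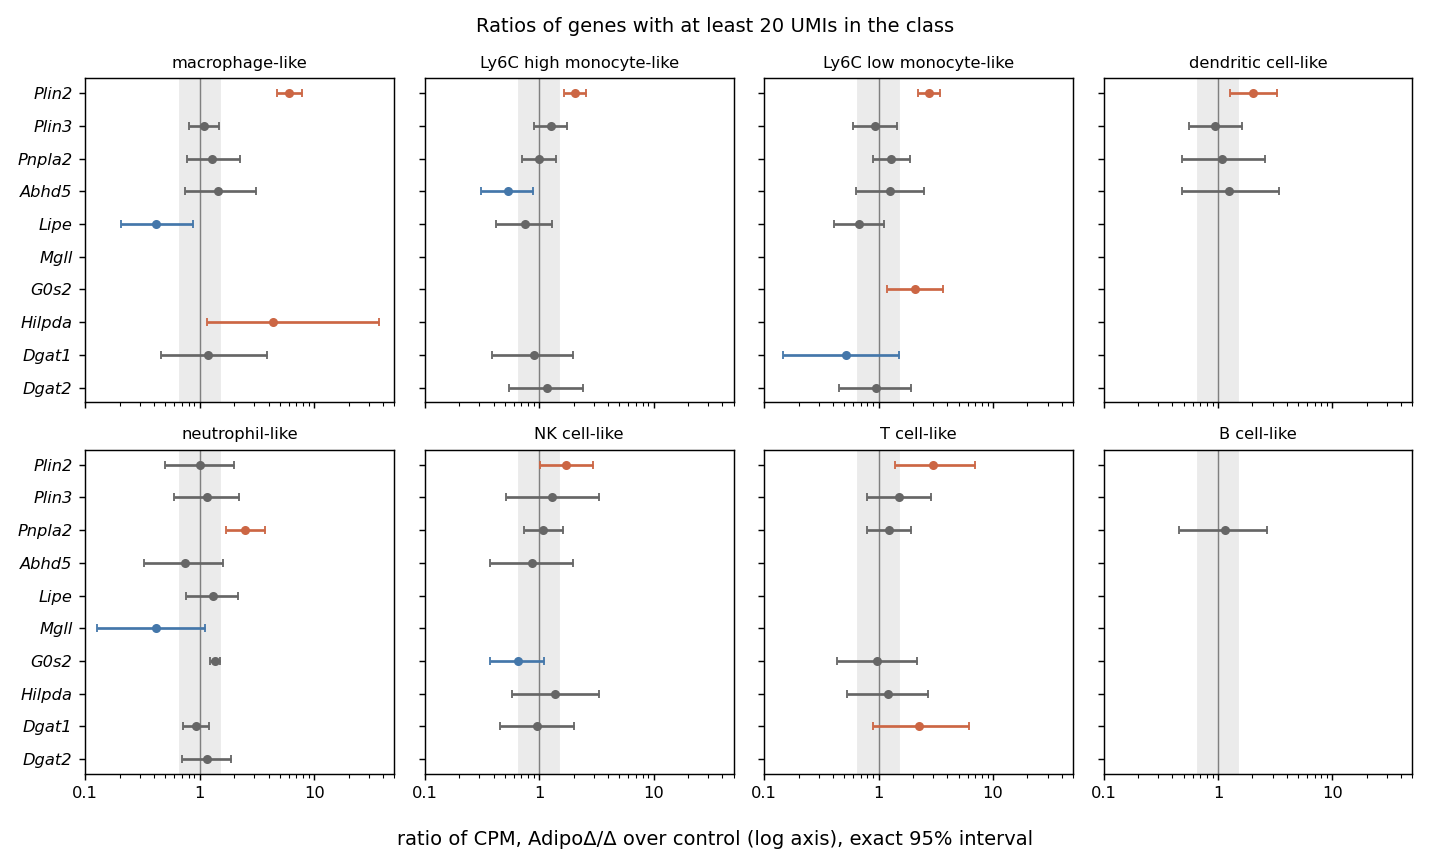
Ratio of CPM in AdipoΔ/Δ over control (log axis) for each member with at least 20 UMIs in a class, with exact 95% intervals as bars; the grey band marks ratios within 1.5-fold. Plin2 lies to the right of the band in 6 classes and at 1.02 in neutrophil-like cells, where Pnpla2 lies at 2.50.

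The other genes of the pathway were taken from a list of 68 by role, of which 66 were in the matrices. In macrophage-like cells 41 had enough UMIs for a ratio, and 10 were at least 1.5-fold higher and 2 lower in AdipoΔ/Δ, against 21.2% and 12.3% of all genes, with a median log2 ratio of 0.09 against 0.11. The count of higher genes is near that of all genes and is not read as a property of the list. By role, 0 of 7 droplet coat and structure genes, 3 of 13 synthesis genes, 5 of 9 other lipases and 2 of 12 regulators were higher. The largest ratios were those of Pparg, the lipid-sensing nuclear receptor (9.34 and 39.1 CPM, ratio 4.18), Agpat5, an acyltransferase (14.9 and 39.4 CPM, ratio 2.63), and Lpl, lipoprotein lipase (1291 and 3170 CPM, ratio 2.46). Among the smallest were those of Adora2a, an adenosine receptor (ratio 0.642), and Acsl3, an acyl-CoA synthetase (0.686). The coat genes typical of adipocytes, Plin1, Plin4, Plin5, Cidea and Cidec, had at most 4 UMIs each in macrophage-like cells of either library.

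In neutrophil-like cells 26 pathway genes had a ratio, of which 7 were higher and 0 lower, against 22.7% and 6.39% of all genes, with a median log2 ratio of 0.39 against 0.26. Here too the count of higher genes is near that of all genes. Lpl had 3 and 21 UMIs (ratio 15.2, 4.55 to 79.7), while Plin2 in the same cells had a ratio of 1.02, and macrophage-like cells express Lpl strongly. Pde4b, a phosphodiesterase that breaks down cAMP, was at 119 and 306 CPM (ratio 2.57), and Hcar2, a receptor that lowers lipolysis in adipocytes, at 72.2 and 180 CPM (ratio 2.49). The smallest ratios were those of Acsl5 (0.764), Soat2 (0.816) and Ppard (0.863).

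The genes whose levels over the 8 classes and 2 libraries were most like those of a member were ranked by Pearson's r of log2(CPM + 1) over these 16 points, which share 2 libraries and their depths, so that r is a description. For Plin2 they were Cstb (0.946), Plekhb2 (0.938) and Anxa4 (0.926), and those for Pnpla2 included Fam32a (0.898) and Cnppd1 (0.894). For G0s2 they were Oga (0.952), Ppp1r18 (0.937) and Ccni (0.935), and for Dgat1 Max (0.953), Slc27a4 (0.943) and Mov10 (0.940). For Plin3 they were Eps8, Cebpa and Tbxas1 (0.930 to 0.958), for Abhd5 Hnrnpll, Hpcal1 and Phactr2 (0.932 to 0.963), for Hilpda Pebp1, Rrp15 and Tbca (0.942 to 0.957), for Dgat2 Rara, Mtus1 and Scnn1a (0.930 to 0.942), for Lipe Mvp, Tlr13 and Mapk14 (0.885 to 0.891) and for Mgll Dhrs9, Asprv1 and R3hdm4 (0.884 to 0.904). Among the members, the highest r were those of Dgat1 with Mgll (0.851), G0s2 with Dgat1 (0.802) and G0s2 with Mgll (0.799), Plin2 and Plin3 reached 0.759, and the lowest was that of Hilpda with Dgat2 (-0.886).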

How the data were processed

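The authors aligned the reads with Cell Ranger (version 4.0.0 in the matrix header) to mm10 and deposited, for each library, a filtered matrix of raw UMI counts per gene and barcode. No normalised values were used. A barcode was kept when 200 or more genes were detected and mitochondrial UMIs did not exceed 10% (87.8% of control and 84.7% of AdipoΔ/Δ barcodes). The study's limit of 2% would have kept 50.3% and 37.3%, and was tried as an alternative. Cells were normalised by SCTransform with the mitochondrial share regressed out, integrated with anchors on 2000 features less the members and pathway genes found among them, and clustered on 20 principal components at resolution 1.0 (R 4.3.3, Seurat 5.3.0, sctransform 0.4.2). Clusters were named from marker lists, so classes are rebuilt and not those of the authors. Scrublet (Scanpy 1.11.5, expected rate 0.02) called 8 (0.308%) and 6 (0.252%) barcodes, too few to have worked, so doublets were in effect not removed. UMIs were summed per class and library with Python 3.11.15, NumPy 2.4.6, SciPy 1.17.1 and pandas 2.3.3, and figures drawn with matplotlib 3.10.9. Intervals were exact Poisson for levels, Clopper-Pearson for shares and conditional binomial for ratios, all at 95%. A count of 0 is given with the limit of 3 counts. For depth, each cell was thinned to 1000 UMIs and shallower cells left out. The ratio step was tested on simulated counts.

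All 10 members are named, with the 3 largest and 3 smallest ratios of the pathway list and the 3 genes most like each member among those with at least 200 UMIs, except 2 genes that are not reported here. The members and lists were chosen with earlier results of these data known. Alternatives were other filters, resolutions, integration, features, scalings, depth, weighting, and size rules. Those on the unnamed cluster, the lipid-associated subset and neutrophils with granule transcripts were added after seeing the data. The study text and the labels differ on the age of the mice, and the labels were followed. Promoter sequences came from RefSeq (GRCm38.p6), and those of Dgat1 and Dgat2 were not used here.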

Additional observations from a re-analysis of the deposited data

Results flagged for a closer look

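The barcodes left out by the filters on detected genes and mitochondrial share, 318 in control and 365 in AdipoΔ/Δ, are outside every comparison above, and 3 members had higher levels in those of AdipoΔ/Δ than in those of control with intervals that did not overlap. Plin2 was at 165.6 CPM (137 to 198) against 26.1 CPM (14.6 to 43.1). Plin3 was at 56.1 CPM (40.1 to 76.5) against 20.9 CPM (10.8 to 36.5), and Abhd5 at 18.2 CPM (9.72 to 31.2) against 1.74 CPM (0.0441 to 9.71). In the other direction, G0s2 was at 21.1 CPM (11.8 to 34.7) in AdipoΔ/Δ against 151.5 CPM (121 to 187) in control, and Dgat1 at 15.4 CPM (7.71 to 27.6) against 67.9 CPM (48.3 to 92.9). These barcodes were assigned to no class, and their makeup was not tested.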

How the results depend on the processing

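The Plin2 ratio in macrophage-like cells, 6.04, was above 1.5 in all 16 alternatives. It ran from 1.74 with the same subset weights in both libraries to 8.05 at a mitochondrial limit of 2%. It was 4.20 with cells thinned to 1000 UMIs, 3.26 as a mean per cell and 3.57 without the lipid-associated subset. The Pnpla2 ratio in these cells lay between 0.883 and 1.67, and that in neutrophil-like cells between 1.77 and 2.50 over 14 alternatives. The minimum of UMIs was applied anew in each setting, so the members with a ratio in macrophage-like cells could differ from the 7 reported. In these cells 4 members were higher at the limit of 2%, and 1 was higher without integration and 1 after thinning. The number lower was 0 at the limit of 2%, 0 after thinning, 0 with at least 50 UMIs required and 3 with no minimum. The Lipe ratio itself lay between 0.210 and 0.565 over 16 alternatives, past 1.5-fold lower in each. Lipe left the count where its UMIs, 12 and 32 as reported, fell under the minimum. After thinning, 7 ratios in place of 15 were past 1.5-fold, not necessarily among those 15. Of the 160 shares of cells, to which no minimum of UMIs applied, 7 in place of 49 were at or above 10%. Members highest in macrophage-like cells of control numbered 1 at the limit of 2%, and those of AdipoΔ/Δ 2 after thinning. The G0s2 level in neutrophil-like cells of control was 1058 CPM after thinning and 939 CPM as a mean per cell. The Hilpda ratio in macrophage-like cells turned from 4.34 to 0.946 after thinning, and the cause was not tested. Outside macrophages the Plin2 ratios stayed above 1 in the alternatives run, at 1.46 to 2.61 in Ly6C high and 1.61 to 2.79 in Ly6C low monocyte-like cells, 1.24 to 2.45 in dendritic cell-like, 1.60 to 3.31 in NK cell-like and 1.62 to 3.40 in T cell-like cells, while the ratio in neutrophil-like cells ran from 0.630 to 1.82.

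No paired analysis was possible because each condition had 1 library and the results come from no test. The macrophage-like class had no cluster without a subset, so that alternative was not run. With 1 library per condition, the spread between mice is unknown, and the 12 lipid-associated macrophages of control, with 28300 UMIs, limit what can be said of that subset.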

Other observations

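Cells outside the 8 classes also held members. The unnamed cluster led by Gm26917, with 65 cells in control and 216 in AdipoΔ/Δ and median depths of 990 and 914.5 UMIs, had 129 CPM of Plin2 (68.9 to 221; 13 UMIs) in control and 502 CPM (430 to 583; 174 UMIs) in AdipoΔ/Δ, and Lpl and Dab2 were among its leading genes. A list of 6 fibroblast genes gave 1 UMI (9.95 CPM) in this cluster in control. In AdipoΔ/Δ it gave 317 UMIs (915 CPM) there, of 365 in all kept cells. The part of fibroblast RNA in the Plin2 difference of this cluster was not tested. Dividing cells, 18 and 36, had 17.4 CPM (3 UMIs) and 131 CPM (71 UMIs) of Plin2, while the macrophage genes C1qa (133 and 781 CPM), Lyve1 (5.79 and 49.96 CPM) and Trem2 (0 and 62.9 CPM) were higher there in AdipoΔ/Δ too, and their part in the difference was not tested. The 12 plasma cell-like cells of control had 0 Plin2 UMIs, which allows up to 18.5 CPM, and the 8 of AdipoΔ/Δ had 16 UMIs, or 87.7 CPM (50.1 to 142). These 8 cells also had macrophage transcripts that the 12 of control lacked, 5 UMIs of Gpnmb, 4 of C1qa and 3 of Trem2, and the part of doublets or free RNA in these values was not tested. Plasma cell-like cells also had Mgll at 18.5 CPM (3 UMIs) and 21.9 CPM (4 UMIs). ILC2-like cells, 36 and 28, had 22.8 and 27.5 CPM of Hilpda, resting on 3 UMIs each.

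3 further genes of the pathway list are given here, chosen after their values were seen. Soat1, which makes the steryl esters stored in droplets, was at 91.6 and 130 CPM in macrophage-like cells (ratio 1.42, 1.06 to 1.95), and Lipa, the lysosomal acid lipase, at 220 and 445 CPM (ratio 2.02, 1.67 to 2.45). Hif1a, which encodes a subunit of the hypoxia factor, was at 123 and 106 CPM in macrophage-like cells (ratio 0.859, 0.660 to 1.13) and at 136 and 188 CPM in neutrophil-like cells (ratio 1.38, 1.05 to 1.80).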
